A study of Mus musculus with 4 samples.

Results

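The genes described here are the replication-coupled histone genes that lie together in genomic clusters, taken as every row of the deposited expression table whose gene symbol starts with Hist1h, Hist2h, Hist3h or Hist4h. The rule found 47 genes, read by 67 probe sets, among 20723 gene symbols and 34760 probe sets in the table. They comprise 5 H1, 12 H2A, 13 H2B, 7 H3 and 10 H4 genes. By cluster, 35 are Hist1 genes, 8 Hist2, 3 Hist3 and 1 Hist4. The expression values come from 4 one-colour arrays of E14, a mouse embryonic stem cell line of Ola129 background. In 2 samples the cells had received esiRNA against Ogt, the gene of the enzyme that attaches O-linked N-acetylglucosamine to proteins (esiOgt). In 2 control samples they had received esiRNA against GFP (esiGFP), so transfection is common to both groups. Such an esiRNA mixture holds many short interfering RNAs obtained by digesting long double-stranded RNA with an enzyme. All cells were grown on gelatin in medium with 15% serum and leukemia inhibitory factor, and RNA was taken 48 h after transient transfection.

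Histone genes supply the protein around which DNA is wound. H2A, H2B, H3 and H4 build the core of the nucleosome, and H1 binds the linker DNA between cores. The clustered genes have no introns, are transcribed mainly in S phase, and give transcripts that end in a conserved stem-loop in place of a poly(A) tail. A few clustered genes are instead known from the germ line, among them Hist1h2aa (TH2A), Hist1h2ba (TH2B) and Hist1h1t (H1t).

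The letters upstream of these genes are shown for the testis-type genes and for the other 2 genes that later had an unadjusted p under 0.05. Each window runs from 250 bases before to 50 bases after the start annotated by RefSeq in GRCm38.p6, written 5′ to 3′ on the gene's own strand. Capitals mark 3 motifs on either strand: the TATA box as TATAAA, the CCAAT box as CCAAT, and the octamer known from H2B promoters as ATTTGCAT.
Hist1h2aa, GRCm38.p6, chr13:23934187-23934486, plus strand: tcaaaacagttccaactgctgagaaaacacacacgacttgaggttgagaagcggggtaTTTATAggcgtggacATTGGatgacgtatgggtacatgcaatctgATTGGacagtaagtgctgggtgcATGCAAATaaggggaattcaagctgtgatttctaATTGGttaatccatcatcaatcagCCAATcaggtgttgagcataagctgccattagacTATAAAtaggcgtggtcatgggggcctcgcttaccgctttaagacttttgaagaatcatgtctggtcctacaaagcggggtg
Hist1h2ba, GRCm38.p6, chr13:23934107-23934406, minus strand: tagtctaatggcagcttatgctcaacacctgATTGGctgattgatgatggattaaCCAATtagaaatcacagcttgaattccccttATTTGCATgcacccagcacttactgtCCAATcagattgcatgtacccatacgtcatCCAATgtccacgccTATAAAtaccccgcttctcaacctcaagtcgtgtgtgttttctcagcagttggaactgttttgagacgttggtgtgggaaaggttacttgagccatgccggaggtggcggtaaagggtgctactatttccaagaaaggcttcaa
Hist1h1t, GRCm38.p6, chr13:23695561-23695860, plus strand: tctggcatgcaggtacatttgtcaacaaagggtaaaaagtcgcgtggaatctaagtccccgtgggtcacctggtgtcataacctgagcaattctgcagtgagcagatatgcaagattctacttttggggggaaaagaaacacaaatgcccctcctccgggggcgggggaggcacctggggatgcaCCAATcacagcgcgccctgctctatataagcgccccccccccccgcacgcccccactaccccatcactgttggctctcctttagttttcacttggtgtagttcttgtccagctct
Hist1h4c, GRCm38.p6, chr13:23698409-23698708, minus strand: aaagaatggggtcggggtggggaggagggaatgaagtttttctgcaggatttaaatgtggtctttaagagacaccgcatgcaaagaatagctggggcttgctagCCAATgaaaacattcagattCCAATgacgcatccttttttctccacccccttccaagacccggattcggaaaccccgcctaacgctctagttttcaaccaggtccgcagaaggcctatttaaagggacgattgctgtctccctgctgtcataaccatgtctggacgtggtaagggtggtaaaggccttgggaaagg
Hist1h2bp, GRCm38.p6, chr13:21787238-21787537, plus strand: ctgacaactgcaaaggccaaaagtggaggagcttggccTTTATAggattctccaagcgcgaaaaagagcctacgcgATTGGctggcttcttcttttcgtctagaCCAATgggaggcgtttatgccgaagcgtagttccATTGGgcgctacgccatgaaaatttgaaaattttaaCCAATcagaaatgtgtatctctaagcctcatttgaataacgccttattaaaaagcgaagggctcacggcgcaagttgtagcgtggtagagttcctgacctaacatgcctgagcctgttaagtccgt
The windows of Hist1h2aa and Hist1h2ba share 220 bases, since the genes start close together and run in opposite directions. The shared stretch carries 1 octamer match, 4 CCAAT matches and 1 TATAAA match, the last on the strand of Hist1h2ba. All 47 genes were found in the RefSeq table (45 by accession and 2 by their older symbol, since all have been renamed) and 41 had a window. A CCAAT match was present in 34 of 41 windows (82.9%) against 37.9% of 27025 gene windows in the whole table. It was present in all 5 H1, 12 H2A, 10 H2B and 5 H3 windows, but in 2 of 9 H4 windows. TATAAA occurred in 22 of 41 (53.7%) against 14.2% of all windows, and ATTTGCAT in 10 of 41 (24.4%) against 1.75%, in 5 H2A and 5 H2B windows. Matches in overlapping windows of neighbours were counted for each gene.

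Ogt itself read 9.73 and 10.09 on the esiOgt arrays, against 11.51 and 11.38 on the esiGFP arrays, a log2 change of -1.54 (SE 0.17). The 10 stem cell markers, such as Pou5f1, Nanog and Dppa5a, had mean log2 values from 9.61 to 13.43, and the 7 fibroblast markers from 4.25 to 7.06. These are signals of different probes and do not rank transcript amounts, so the stem cell label was not tested by them. The array medians over all probe sets ranged from 6.41 to 6.43 in the esiOgt group and from 6.40 to 6.46 in the esiGFP group. With limma and adjustment over the table, 0 of 34760 probe sets (0%) were past 0.05, and Ogt was not called either (adjusted p = 0.674). At an unadjusted p under 0.05 stood 1256 of 20723 genes, 552 lower and 704 higher. With 2 arrays a group an exact two-sided permutation test cannot go below p = 0.333.

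Histone cluster genes were mostly lower after Ogt silencing, by small amounts. The 2 esiOgt arrays also differed from each other, in the same direction for most of these genes, as given below. With the probe set of highest mean per gene, 40 of 47 genes (85.1%) had a negative log2 change, where 48.8% of all genes did. In bulk samples fewer cells in S phase and less histone message per cell cannot be told apart. Their median log2 change was -0.13, against 0.005 over all genes. Both esiOgt arrays lay below both esiGFP arrays for 27 of the 47 genes, where this held for 19.4% of all genes. The opposite order, both esiOgt arrays above, occurred for 0 of the 47 and for 20% of all genes. No member passed the adjusted threshold in limma (0 of 47). The smallest adjusted p among them was 0.674, which was also the smallest of the whole table. At an unadjusted p under 0.05 there were 3 members, Hist1h2aa, Hist1h4c and Hist1h2bp, all lower. That is 6.38% of the members, where 6.06% of all genes stood at that level in either direction (2.66% lower and 3.4% higher). Markers of other cell types were also compared. In limma 0 of the neural, trophoblast, endoderm and fibroblast markers had an unadjusted p under 0.05. Of the 3 neural markers all were lower (median -0.22), with averages of 7.49 and 7.09 in esiOgt, against 7.82 and 7.56 in esiGFP. Their log2 changes ran from -0.97 for Pax6 to -0.01 for Nes, whose groups overlapped. Trophoblast markers were lower in 3 of 4 (median -0.11), with averages of 6.64 and 6.72 in esiOgt, against 6.76 and 6.78 in esiGFP, and endoderm markers in 2 of 4 (median -0.12), with overlapping averages. Fibroblast markers were lower in 5 of 7 (median -0.07) and stem cell markers higher in 8 of 10 (median 0.07). None of these markers passed the adjusted threshold, and their part in the histone values was not tested. Neighbouring copies are close in sequence, so probe sets may share transcripts and the members are not independent of each other.

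**Figure D1:**
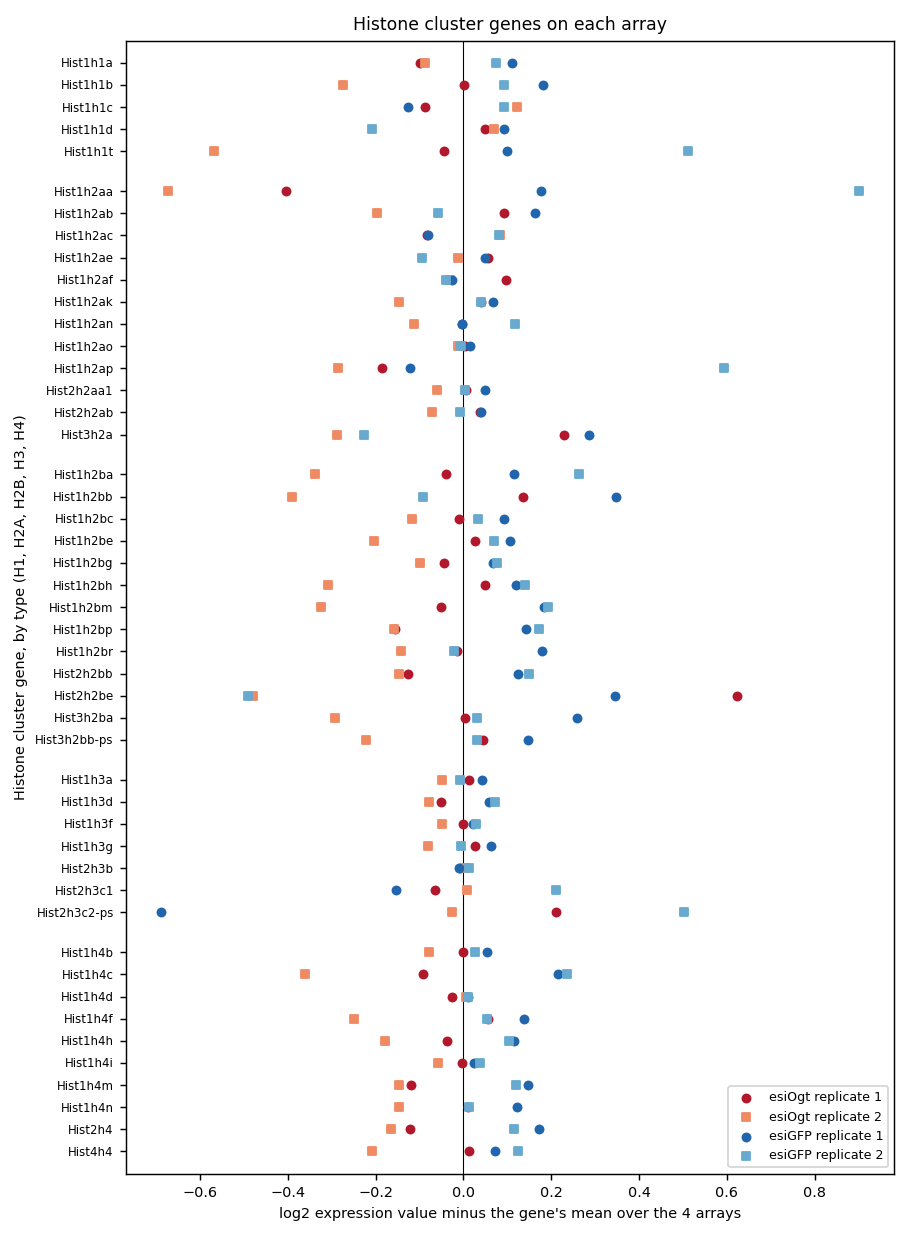
Log2 expression value on each of the 4 arrays minus the gene's own mean over the arrays, for the 47 histone cluster genes by type; red and orange points are the esiOgt arrays, blue points the esiGFP arrays. Both esiOgt arrays lie left of both esiGFP arrays for 27 genes and right of them for 0.

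The shift was not the same on both esiOgt arrays. Taking each gene's deviation from its mean over the 4 arrays, the median over the 47 genes was -0.002 on esiOgt replicate 1 and -0.15 on esiOgt replicate 2, against 0.09 and 0.05 on the esiGFP arrays. The second esiOgt array was thus the lowest, and the first lay between it and the controls. Set against single control arrays, esiOgt replicate 1 was lower for 40 of 47 genes against esiGFP replicate 1 and for 32 against esiGFP replicate 2. For esiOgt replicate 2 the counts were 42 and 41. Within the esiOgt group, replicate 1 was below replicate 2 for 7 of the 47 genes, while within the esiGFP group replicate 1 was below replicate 2 for 20. Over all genes these 6 shares lay between 47.3% and 51.1%. Over the 47 genes the median difference within the esiOgt group (replicate 1 minus replicate 2) was 0.11. Its size exceeded that of esiOgt replicate 1 against esiGFP replicate 1 (-0.07) and against esiGFP replicate 2 (-0.04). Without esiOgt replicate 2 the median change of the members was -0.06 and 38 of 47 were lower, where 48.1% of all genes were. Without esiOgt replicate 1 it was -0.21, with 40 lower, where 50.7% of all genes were.

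**Figure D2:**
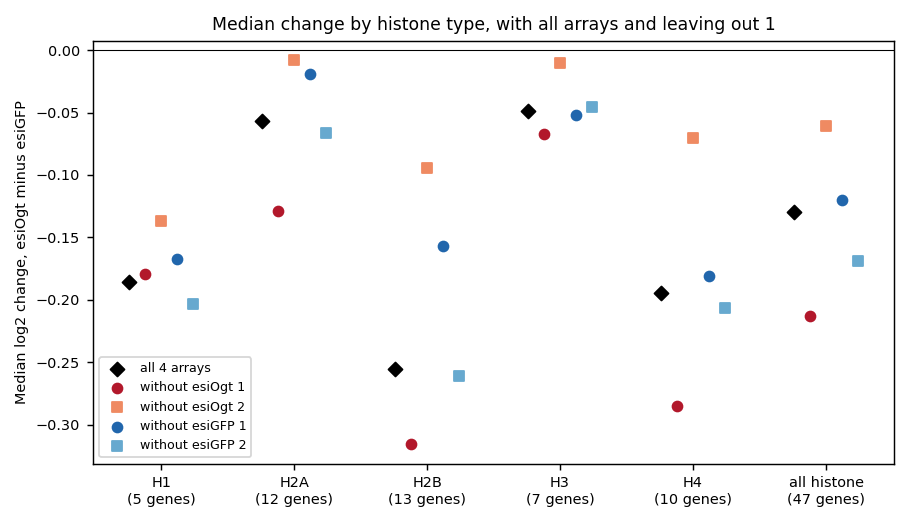
Median log2 change (esiOgt minus esiGFP) of the 5 H1, 12 H2A, 13 H2B, 7 H3 and 10 H4 genes and of all 47, with all 4 arrays (diamonds) and with each array left out. Every median is below 0, from -0.008 for H2A without esiOgt replicate 2 to -0.32 for H2B without esiOgt replicate 1.

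For all 3 testis-type members both esiOgt arrays lay below both controls (median log2 change -0.61), where 19.4% of all genes did. Hist1h2aa and Hist1h1t had the 2 largest differences of the family. Hist1h2aa, which encodes the H2A form TH2A, read 9.44 and 9.17 on the esiOgt arrays, against 10.02 and 10.74 on the esiGFP arrays. Both silenced arrays were below both controls, but the 2 controls themselves differed by more than the silenced arrays did. The mean was 9.30 ± 0.19 in esiOgt and 10.38 ± 0.51 in esiGFP (SD, n = 2 each), a log2 change of -1.08 (SE 0.29, 95% confidence interval -1.84 to -0.31) or 2.11-fold lower. In limma it had an unadjusted p = 0.016 and an adjusted p = 0.674. With each array left out its log2 change lay between -1.44 (without esiGFP replicate 1) and -0.72 (without esiGFP replicate 2), and without esiOgt replicate 2 its unadjusted p was 0.056.

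Hist1h2ba encodes TH2B, the H2B partner of TH2A, and starts from the other end of the shared stretch printed above. It read 7.37 and 7.07 on the esiOgt arrays, against 7.53 and 7.68 on the esiGFP arrays. The groups did not overlap, and the log2 change was -0.38 (SE 0.16, 95% confidence interval -0.81 to 0.05). Hist1h1t, the linker histone of spermatocytes, read 6.47 and 5.94 in esiOgt, against 6.61 and 7.02 in esiGFP. Here too the silenced arrays were lower, with a log2 change of -0.61 (SE 0.25, 95% confidence interval -1.29 to 0.07). Neither Hist1h2ba (unadjusted p = 0.072) nor Hist1h1t (unadjusted p = 0.067) reached the unadjusted level. Without esiOgt replicate 2 the log2 change of Hist1h2ba was -0.23 and without esiOgt replicate 1 it was -0.53 (unadjusted p = 0.044). For Hist1h1t it was -0.35 without esiOgt replicate 2, -0.40 without esiGFP replicate 2 and -0.87 without esiOgt replicate 1 (unadjusted p = 0.023). Leaving these 3 genes out hardly altered the family: 37 of the other 44 were lower, with a median of -0.12.

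Of the 8 germ cell and testis markers 6 were lower and 2 higher (median -0.17 on the log2 scale). Their average was 6.32 and 6.29 on the esiOgt arrays, against 6.59 and 6.48 on the esiGFP arrays, and its part in the testis-type histone values was not tested. Sycp3, a gene of the synaptonemal complex, read 7.93 and 7.45 in esiOgt, against 9.38 and 8.91 in esiGFP. The germ cell helicase gene Ddx4 was also lower, with 7.52 and 7.08 in esiOgt, against 8.30 and 7.92 in esiGFP. Sycp1, another gene of the synaptonemal complex, was higher, with 6.22 and 6.34 in esiOgt, against 5.40 and 5.34 in esiGFP. The other higher marker, Dazl, stood at 0.15 (SE 0.31), with overlapping groups. Hils1, a linker-like histone of spermatids outside the clusters, read 5.78 and 5.90 in esiOgt, against 6.13 and 6.29 in esiGFP, a log2 change of -0.37 (SE 0.13). The protamine and transition protein genes Prm1, Prm2, Tnp1 and Tnp2, which package sperm DNA, had log2 changes between -0.20 and -0.12. None of these genes passed the adjusted threshold.

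**Figure D3:**
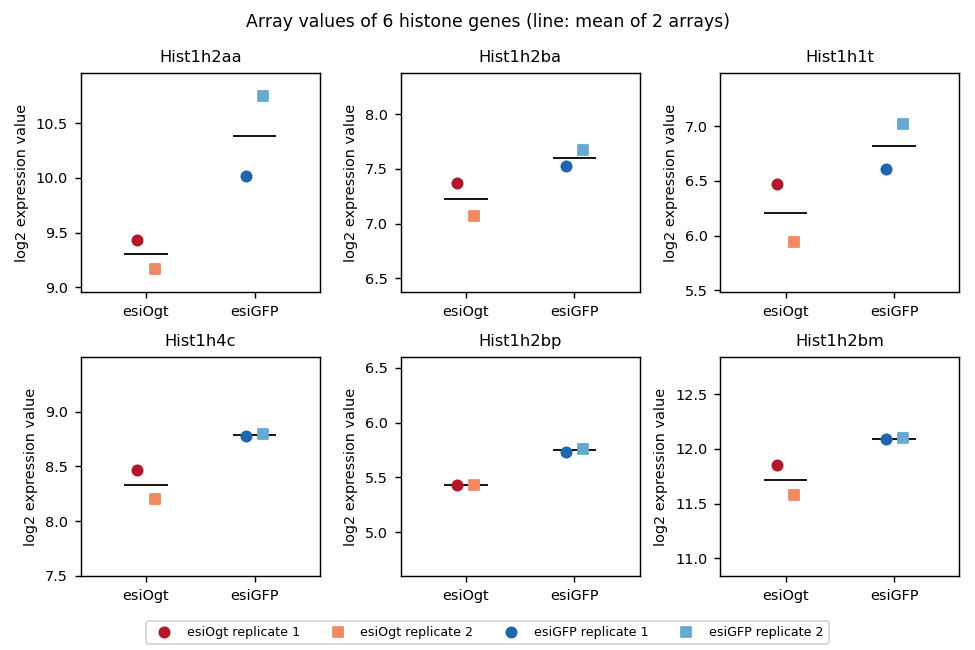
Log2 expression values of 6 histone genes on the esiOgt arrays (left in each panel) and the esiGFP arrays (right), with a line at each group's mean; every panel spans 2 log2 units. In all 6 the esiOgt arrays lie below the esiGFP arrays, with the widest gap between means for Hist1h2aa (9.30 against 10.38).

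Of the 5 linker histone genes, 3 were lower and 2 higher. The replication-coupled Hist1h1a read 10.94 and 10.95 in esiOgt, against 11.15 and 11.11 in esiGFP, a log2 change of -0.19 (SE 0.11). Hist1h1b, which had the highest signal of the H1 probe sets, read 11.33 and 11.05 in esiOgt, against 11.51 and 11.42 in esiGFP. Its log2 change was -0.27 (SE 0.15), and as with Hist1h1a the groups did not overlap. The dim Hist1h1d read 4.91 and 4.93 in esiOgt, against 4.95 and 4.65 in esiGFP, values that overlapped (log2 change 0.12, SE 0.15). Hist1h1c, the gene of H1.2, overlapped as well at 0.03 (SE 0.15). The median over the type was -0.19.

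Among 12 H2A genes 9 were lower and 3 higher, and their median log2 change was -0.06. That median was -0.0079 without esiOgt replicate 2, -0.0193 without esiGFP replicate 1 and -0.13 without esiOgt replicate 1. Both esiOgt arrays lay below both controls for 4 of the 12 (33.3%), where 19.4% of all genes did. Beside Hist1h2aa, the largest difference was that of Hist1h2ap, which read 6.44 and 6.34 in esiOgt, against 6.51 and 7.22 in esiGFP. Its log2 change of -0.47 (SE 0.27) rests largely on the higher of the 2 control values, and without esiGFP replicate 2 it was -0.11. Hist1h2an read 12.70 and 12.59 in esiOgt, against 12.70 and 12.82 in esiGFP, so that an array of each group stood at nearly the same level. The genes with positive values, Hist1h2ac, Hist1h2ae and Hist1h2af, had log2 changes of 0.0006, 0.04 and 0.06, and for all 3 the groups overlapped. Hist1h2ae read 4.12 and 4.05 in esiOgt, against 4.11 and 3.97 in esiGFP. Hist1h2ac and Hist1h2ae were also the dimmest of the H2A probe sets, at mean log2 values of 4.06 each.

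The median log2 change of the 13 H2B genes was -0.26, with 12 lower and 9 (69.2%) without overlap, where both esiOgt arrays lay below for 19.4% of all genes. It was the most negative of the 5 types with all arrays, but not without esiOgt replicate 2 (H2B -0.0941, H1 -0.14) or without esiGFP replicate 1 (H2B -0.16, H4 -0.18, H1 -0.17). Hist1h2bp, shown above with its promoter, was dim, with a mean log2 value of 5.59, under the median of every array. It read 5.43 and 5.43 in esiOgt, against 5.73 and 5.76 in esiGFP. Each group was tight and the gap clear of it, with a log2 change of -0.32 (SE 0.11, 95% confidence interval -0.62 to -0.01, unadjusted p = 0.046). With arrays centred on their medians the p of Hist1h2bp was 0.055, and it was above 0.05 with any array left out. Hist1h2bm read 11.85 and 11.58 in esiOgt, against 12.09 and 12.09 in esiGFP, a log2 change of -0.38 (SE 0.15, unadjusted p = 0.057). Hist2h2bb read 8.59 and 8.57 in esiOgt, against 8.84 and 8.86 in esiGFP, a log2 change of -0.27 (SE 0.11). Hist1h2bc, whose probe set had the highest signal of the type, read 12.99 and 12.88 in esiOgt, against 13.09 and 13.03 in esiGFP. The exception was Hist2h2be, whose 2 replicates stood far apart in both groups, at 6.43 and 5.33 in esiOgt and 6.15 and 5.32 in esiGFP.

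The 7 H3 genes had a median log2 change of -0.05 (-0.01 without esiOgt replicate 2), with a range from -0.13 to 0.18. Hist1h3d read 13.31 and 13.28 in esiOgt, against 13.42 and 13.43 in esiGFP, a log2 change of -0.13 (SE 0.11). Hist1h3f was the other H3 gene without overlap, at -0.05 (SE 0.11). Hist2h3b, with the highest signal of all members, read 13.67 and 13.68 in esiOgt, against 13.67 and 13.69 in esiGFP, and its log2 change was -0.0038 (95% confidence interval -0.31 to 0.30). Its sign turned when arrays were centred on their medians (0.003) or quantile normalized (0.02). Hist1h3g read 12.55 and 12.44 in esiOgt, against 12.59 and 12.52 in esiGFP. Hist2h3c1 read 7.38 and 7.46 in esiOgt, inside the esiGFP values of 7.30 and 7.66. Hist2h3c2-ps, listed as a pseudogene in the file and as a protein-coding gene (H3c15) by RefSeq, read 5.28 and 5.05 in esiOgt, also inside the esiGFP values of 4.38 and 5.58. Quantile normalization took the H3 median to -0.0005.

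All 10 H4 genes were lower (median log2 change -0.19, or -0.07 without esiOgt replicate 2), and both esiOgt arrays lay below both controls for 9 of them, where 19.4% of all genes did so. Some of the 9 were separated by very little, such as Hist1h4d at -0.02 (SE 0.11) and Hist1h4i at -0.06 (SE 0.11). Hist1h4c read 8.47 and 8.20 in esiOgt, against 8.77 and 8.79 in esiGFP, and had the largest difference of the type. Its log2 change was -0.45 (SE 0.15, 95% confidence interval -0.84 to -0.06), or 1.37-fold lower (unadjusted p = 0.032, adjusted p = 0.674 in limma). Its unadjusted p stayed under 0.05 without esiOgt replicate 1 but not without any of the other 3 arrays. Hist2h4 read 12.29 and 12.24 in esiOgt, against 12.58 and 12.52 in esiGFP, a log2 change of -0.29 (SE 0.12, unadjusted p = 0.064). The dim Hist1h4m read 5.29 and 5.26 in esiOgt, against 5.56 and 5.53 in esiGFP, a log2 change of -0.27 (SE 0.11, unadjusted p = 0.073). Hist4h4, the one gene of its cluster, read 10.14 and 9.92 in esiOgt, against 10.20 and 10.25 in esiGFP (log2 change -0.20, SE 0.14). The one H4 gene whose groups overlapped was Hist1h4f, at -0.19 (SE 0.16).

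**Figure D4:**
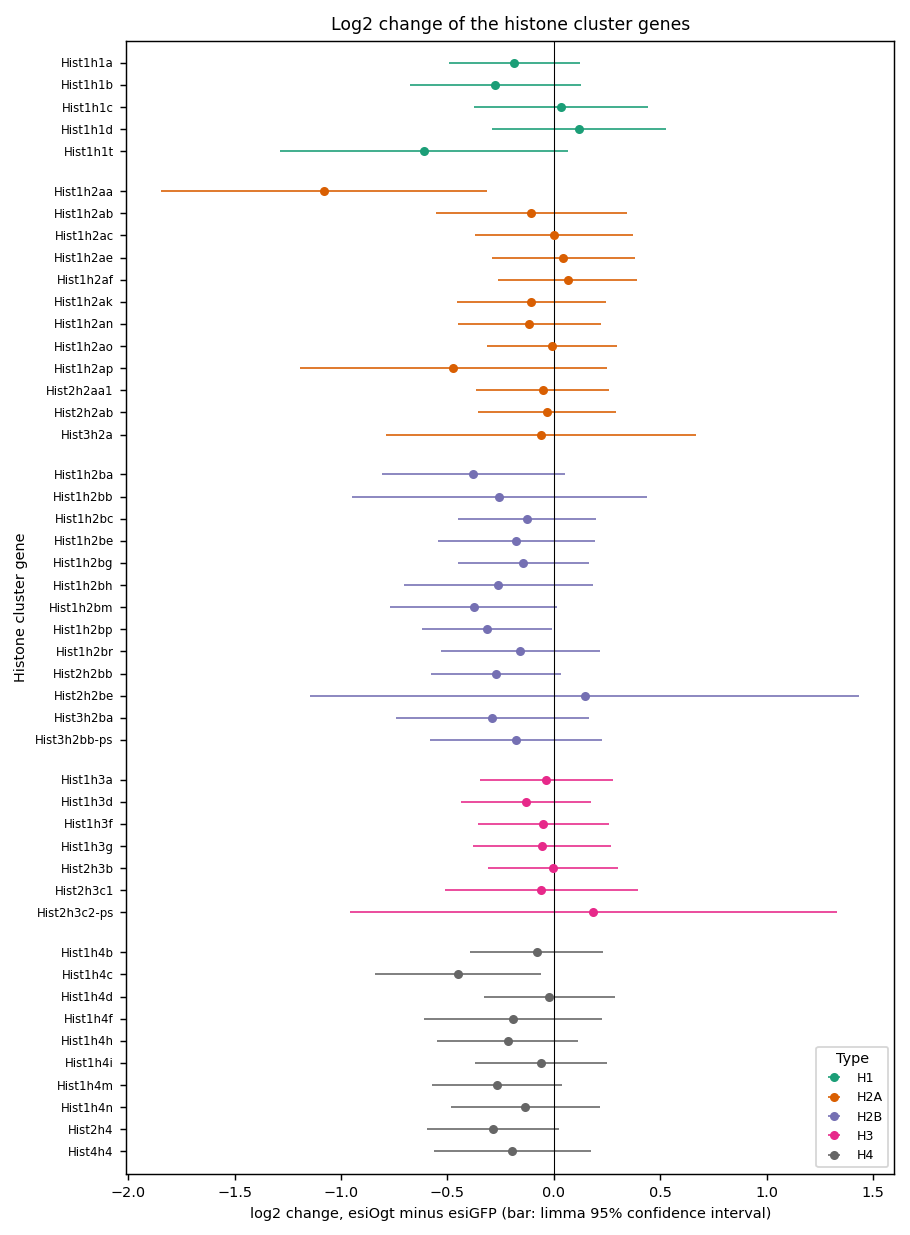
Log2 change (esiOgt minus esiGFP) of each of the 47 histone cluster genes with its limma 95% confidence interval, coloured by type. The intervals of Hist1h2aa, Hist1h4c and Hist1h2bp lie wholly below 0, and all the others include 0.

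By cluster, 30 of 35 Hist1 genes were lower (median log2 change -0.13), 6 of 8 Hist2 genes (median -0.04) and all 3 Hist3 genes (median -0.18). By RefSeq the Hist1 genes lie on chromosome 13, the Hist2 genes on 3, the Hist3 genes on 11 and Hist4h4 on 6. Within Hist2, both esiOgt arrays lay below both controls for Hist2h2bb and Hist2h4 (25.0%, where 19.4% of all genes did), and the remaining 6 overlapped. Hist2h2ab read 9.95 and 9.84 in esiOgt, against 9.95 and 9.90 in esiGFP, a log2 change of -0.03 (SE 0.12). Hist3h2a read 11.62 and 11.10 in esiOgt, against 11.68 and 11.17 in esiGFP, so the spread within each group was wider than the difference of -0.06 between them. Hist3h2ba, from the same cluster, read 6.09 and 5.80 in esiOgt, against 6.35 and 6.12 in esiGFP (log2 change -0.29, SE 0.17), and the pseudogene Hist3h2bb-ps read 7.56 and 7.30 in esiOgt, against 7.67 and 7.55 in esiGFP.

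Besides Hist1h2aa with Hist1h2ba, 3 further pairs of an H2A and an H2B gene had overlapping windows on opposite strands. For Hist1h2an and Hist1h2bp the log2 changes were -0.11 and -0.32, and for Hist1h2ap and Hist1h2br -0.47 and -0.16. For Hist1h2ae and Hist1h2bg they were 0.04 and -0.14. Both genes were thus lower in 3 of the 4 pairs.

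Of the 47 genes, 9 had over 1 probe set, 29 in all. For 7 of the 9 every probe set was lower, while Hist1h2bc and Hist1h4b had probe sets on both sides of 0. Probe sets under one symbol differed widely in signal. The 3 of Hist1h3f had mean log2 values from 3.51 to 13.27 and log2 changes from -0.17 to -0.05. The 5 of Hist1h2ao ran from 7.57 to 13.11, with log2 changes from -0.31 to -0.01, and the largest difference belonged to a probe set other than the brightest, which read 11.18 and 10.76 in esiOgt, against 11.29 and 11.28 in esiGFP. The 4 of Hist2h2aa1 had log2 changes from -0.36 to -0.05, and the brightest read 13.13 and 13.07 in esiOgt, against 13.18 and 13.13 in esiGFP. The brightest of the 3 Hist1h4b probe sets read 13.44 and 13.36 in esiOgt, against 13.49 and 13.46 in esiGFP. Counting all 67 probe sets, 57 were lower (85.1%, median -0.13). Both esiOgt arrays lay below both esiGFP arrays for 35 of the 67, where this held for 19.8% of all probe sets. At an unadjusted p under 0.05 and lower stood 3 of the 67 (4.48%), against 3.28% of all probe sets.

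The differences were smaller among the brightest probe sets. The 20 with a mean log2 value of 12 or more had a median log2 change of -0.07 (19 lower), the 19 between 9 and 12 of -0.19 (19 lower), and the 28 under 9 of -0.12 (19 lower and 9 higher). The highest value on any array was 14.30. All genes in the same bands had medians of -0.02, 0.05 and -0.007. A signal depends on the probes, so these bands order probe sets by brightness on the array and not by transcript amount. Across the 67 probe sets Spearman's rho between brightness and the size of the log2 change was -0.24, given as a description since they share arrays and partly sequence.

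**Figure D5:**
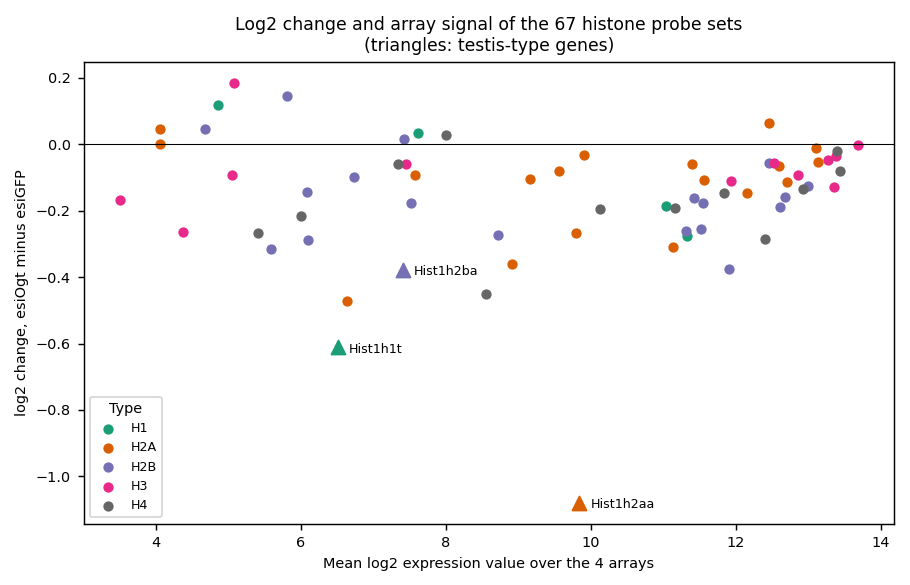
Log2 change (esiOgt minus esiGFP) against mean log2 expression value for the 67 histone probe sets, coloured by type, with triangles for the 3 testis-type genes. The 20 probe sets at 12 or more lie close to 0 (median -0.07), and the 19 between 9 and 12 are all below it (median -0.19).

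Histone genes outside the clusters were lower in 11 of 15 measured (median log2 change -0.07). Most are expressed through the cell cycle or replace the canonical forms, and some belong to the germ line, such as Hils1. Both esiOgt arrays lay below both controls for 3 of the 15 (H1f0, H3f3a and Hils1), a share near the 19.4% of all genes. Hils1, described above, had the smallest unadjusted p of the list in limma (0.042). H3f3a, which encodes H3.3, read 11.65 and 11.45 in esiOgt, against 11.79 and 11.72 in esiGFP, a log2 change of -0.21 (SE 0.13). H3f3b, the second gene of that protein, was at -0.07 (SE 0.13) with overlapping groups, as was H2afz, the gene of H2A.Z (-0.07, SE 0.20). H2afx, whose product marks DNA breaks, stood at -0.0032 (SE 0.13). H1f0 and H2afj were at -0.31 (SE 0.19) and -0.27 (SE 0.18).

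Of 29 genes for the transcription, 3′ end formation and decay of histone messages, 8 were lower and 21 higher, with a median of 0.08. Of all genes with a mean log2 value between 9 and 12, where the median level of the list lies (9.88), 3006 of 5017 were higher. In limma 0 of the 29 passed the adjusted threshold, and 1 (3.45%) stood at an unadjusted p under 0.05, where 6.06% of all genes did. Slbp, which binds the stem-loop of histone messages, was among the lower ones, with 9.74 and 9.72 in esiOgt, against 9.92 and 10.24 in esiGFP. The groups did not overlap, and the log2 change was -0.35 (SE 0.16, unadjusted p = 0.085). Npat, the coactivator of histone genes downstream of cyclin E, stood at 0.02 (SE 0.15), and Casp8ap2, which acts in processing at the histone locus body, at -0.01 (SE 0.12). Mblac1, a nuclease of histone message processing in human cells, read 6.64 and 6.46 in esiOgt, against 6.18 and 5.97 in esiGFP, a log2 change of 0.47 (SE 0.15). The RNA helicase gene Upf1, needed for histone message decay, was at 0.29 (SE 0.12) and the Cajal body gene Coil at 0.24 (SE 0.15).

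Of 29 histone chaperone and import genes, 11 were lower and 18 higher, with a median of 0.03. Among all genes between 9 and 12 in mean log2 value, where the list's median level lies (10.64), 3006 of 5017 were higher. An unadjusted p under 0.05 in limma was held by 1 of the 29 (3.45%), where 6.06% of all genes stood at that level. Chaf1b, a subunit of the chaperone CAF-1 that deposits new H3 and H4 at replication, read 10.53 and 10.33 in esiOgt, against 10.84 and 10.88 in esiGFP. Its log2 change was -0.43 (SE 0.13, unadjusted p = 0.028), and Asf1b, which hands H3 and H4 to CAF-1, was at -0.28 (SE 0.15). Supt6h and Npm3 were higher, at 0.37 (SE 0.17) and 0.24 (SE 0.12).

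Genes of S-phase entry and replication were measured beside the histone genes because cluster transcription follows S phase. Of 26, 15 were lower (57.7%) and 11 higher (median log2 change -0.01). Among all genes between 9 and 12 in mean log2 value, where the list's median level lies (10.67), 40.1% were lower (median 0.05). For 8 of 26 (30.8%) both esiOgt arrays lay below both controls, and for 3 above, where 19.4% and 20% of all genes did. Ccne1, the cyclin E gene, read 10.34 and 10.58 in esiOgt, against 11.005 and 11.56 in esiGFP (log2 change -0.82, SE 0.23). The replication helicase genes Mcm2 and Mcm5 were higher, at 0.30 and 0.20, while Mcm4 was lower at -0.21. The averages of the 26 genes were 10.45 and 10.57 on the esiOgt arrays, against 10.43 and 10.66 on the esiGFP arrays, values that overlapped. The part of these genes in the histone values was not tested. No member of these 4 lists passed the adjusted threshold (smallest adjusted p = 0.674).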

How the data were processed

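Total RNA of 4 samples (2 esiOgt, 2 esiGFP) was labelled from 150 ng with whole-transcript kits, per the labels' protocols. The deposited log2 expression values were made with RMA, and the p-values and log2 fold changes of the authors' deposited table with limma, per the submitters' processing notes. For tool versions, array type, genome build and scan batches the entry is: not given in the sources used here. RMA equalises array distributions, so a change shared by all transcripts would not show. Precision is limited by having 4 arrays. Whether replicates came from separate cultures is unstated, so the p-values reflect the spread among these samples alone, possibly a technical one.

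All 34760 probe sets were fitted with lmFit and eBayes of limma 3.58.1 (R 4.3.3), esiOgt minus esiGFP, group as the only term, two-sided, with Benjamini-Hochberg adjustment over all probe sets at 0.05 and no filter on low values. Its p-values differed from those in the authors' deposited table by at most 4.84e-08. The script was tested on simulated data. A gene was represented by its probe set of highest mean. Any member could be named. Array values were given for the testis-type members, all Hist2, Hist3 and Hist4 genes, and in each type the 3 smallest p-values and the brightest and dimmest gene. From the other lists the 4 smallest p-values and Slbp, Npat, Casp8ap2, H2afx, H2afz, H3f3a and H3f3b were taken, though not every such gene is printed. Prm2, Tnp1, Tnp2 and Dazl were named after their values were seen. The members and lists were chosen with earlier results of these data known. Promoter windows and current symbols are from RefSeq (GRCm38.p6). Alternatives were other scalings, a filter on level, other variance priors, the replicate number as a block, averaging the probe sets per gene, the other deposited value table and leaving out each array.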

Additional observations from a re-analysis of the deposited data

How the results depend on the processing

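No probe set passed the adjusted threshold under any alternative run, the histone genes included. The median over the histone genes stayed below 0 throughout, and ran from -0.21 to -0.0609 when each array was left out. Over the same fits the medians ran from -0.20 to -0.14 for H1, -0.13 to -0.0079 for H2A, -0.32 to -0.0941 for H2B, -0.0675 to -0.01 for H3 and -0.29 to -0.0704 for H4. The number of histone genes at an unadjusted p under 0.05 ran from 0 (without esiOgt replicate 2) to 5 (without esiOgt replicate 1). Such a fit leaves 1 group with a lone array, assumed to vary like the other group. With the level filter 37 members remained and the H1 median was -0.23, since the filter left out Hist1h1d (mean log2 value 4.86, log2 change 0.12). Quantile normalization took the H3 median to -0.0005 and the median over the histone genes to -0.0905. With it 37 of 47 were lower, where 52.0% of all genes were, and the cause was not tested.

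With the replicate number as a block the log2 changes were the same and 6 histone genes stood at an unadjusted p under 0.05, when 13.4% of all genes did. The labels do not state a pairing. Deviations from the group means correlated at 0.479 between same-numbered arrays over all probe sets, with 2 pairs.

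Genes close to 0 changed sign. Hist2h3b stood at 0.0027 with centred arrays, 0.022 after quantile normalization, and ran from -0.0146 to 0.007 with each array left out. Over the same fits log2 changes ran from -0.0338 to 0.27 for Hist1h1d, -0.0268 to 0.12 for Hist1h2ae, -0.0888 to 0.0216 for Hist2h2ab, -0.41 to 0.70 for Hist2h2be, -0.24 to 0.12 for Hist2h3c1, -0.41 to 0.78 for Hist2h3c2-ps and -0.32 to 0.20 for Hist3h2a.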
